A study of Gallus gallus with 89 samples.

Results

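Mesodermal cells called mitotic by 4 transcripts were compared with mesodermal cells called non-mitotic, in the chick amniogenic somatopleure. This is the double sheet of ectoderm and mesoderm at the flank of the early embryo that folds up to form the amnion. The class names stand for the rule below and not for an observed division. The mitotic cells were 16 cells that detected at least 2 of 4 rule genes, KIF14, NEK2, FOXM1 and CIT, and the non-mitotic cells were 34 cells that detected none of them. Together they are 50 of the 89 cells in the series. A gene was called detected in a cell at 10 CPM or more, CPM being the reads of a gene scaled to an equal total of gene reads in each cell. Mesodermal cells were those with at least 3000 genes with a read that detected at most 1 of the ectoderm genes CDH1, TFAP2A and CLDN3, which held for 58 cells. Of the others, 26 had more ectoderm genes and 5 had too few genes. The 8 remaining mesodermal cells detected exactly 1 of the 4 genes and were placed in neither class. Both classes came from pooled wild-type, untreated tissue of over 15 embryos taken at stage 10, embryonic day 1.5. Genotype, treatment and age thus did not differ between them. Cell titles carry the prefix X09 or X29, and whether these stand for separate captures was not known. Cells were strained to single cells, caught on a Fluidigm C1 chip made for small cells and photographed, and full-length cDNA of each cell was sequenced. No label ties a cell to an embryo, so the pool is 1 sample, cells are not replicates, and no test was run. The classes are described by rules of size. Shares are given with 95% Clopper-Pearson (exact) intervals, which speak for counting error alone.

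A dividing cell copies its DNA in S phase, prepares in G2 and parts its chromosomes in mitosis, and its transcripts follow. Genes for DNA copying are switched on by E2F factors before and during S phase, and genes for the spindle, the kinetochore and cell cleavage are switched on later, through the MuvB complex together with B-MYB and FOXM1. Transcripts of the later set build up through G2 and mitosis and are lost as the daughter cells enter G1, so a cell that holds them may be in late G2 or in mitosis, and RNA does not part these. KIF14 and CIT act in the last step, cleavage: KIF14 is a kinesin motor of the midbody, where it works with citron kinase, encoded by CIT. NEK2 is a kinase that parts the centrosomes, and FOXM1 is the transcription factor named above.

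The 4 genes chose the classes, and their levels describe the choice. KIF14 was detected in 11 of 16 mitotic cells, NEK2 in 14, FOXM1 in 14 and CIT in 11, and by the rule none was detected in the 34 non-mitotic cells. In the mitotic cells KIF14 ran from 0 to 190.8 CPM with a median of 34.2 CPM, NEK2 from 0 to 431 with a median of 218, FOXM1 from 0 to 225 with a median of 50.2, and CIT from 0 to 87.97 with a median of 29.4. Of the 16 mitotic cells 5 detected 2 of the genes, 4 detected 3 and 7 detected all 4. The mitotic cell nearest the limit detected KIF14 at 11.05 CPM (13 reads) and CIT at 10.2 CPM (12 reads). The cells just outside detected 1 gene each, the lowest being FOXM1 at 10.2 CPM (22 reads) and the highest FOXM1 at 44.1 CPM (68 reads).

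Each of the 4 genes was also left out in turn, with the classes set by the other 3, and the gene left out was described. The 4 came together from an earlier clustering of these cells. That they go together was thus given by their choice, and the values below check nothing. NEK2 was then detected in 11 of 13 mitotic cells (84.6%, interval 54.6 to 98.1%) and 3 of 37 non-mitotic cells (8.11%, interval 1.70 to 21.9%), with a mean of 213 ± 138 CPM (SD over cells) in mitotic and 1.19 CPM in non-mitotic cells. FOXM1 was detected in the same numbers of cells, 11 of 13 and 3 of 37. CIT was detected in 8 of 13 mitotic and 2 of 36 non-mitotic cells, and KIF14 in 10 of 15 mitotic and 0 of 34 non-mitotic cells. A count of 0 in 34 cells allows a share of up to 10.3% by the exact interval.

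The mitotic share was 27.6% of the mesodermal cells (16 of 58, interval 16.7 to 40.9%). Among the 26 ectodermal cells 7 detected at least 2 of the genes, which is 26.9% (interval 11.6 to 47.8%), an interval that covers the whole of the mesodermal one. Cell titles carried the prefix X09 or X29, whose meaning the labels do not give, and some cell numbers occur under both. Whether the prefixes stand for separate captures was not known. Of the mitotic cells 13 were X09 and 3 X29, and of the non-mitotic cells 24 were X09 and 10 X29. The mitotic share was thus 30.2% in X09 cells (13 of 43) and 20% in X29 cells (3 of 15, interval 4.33 to 48.1%). Sequencing depth overlapped between the classes: gene reads per cell had a median of 1509208 in mitotic cells (1070304 to 1991057) and 1436175 in non-mitotic cells (328645 to 2381723).

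The mitotic cells had the higher values in both guides to RNA content. The Spike rows are, by their name, RNA added to each reaction, and where the same amount is added, gene reads per Spike read follow the cellular RNA that was caught and copied. That ratio ran from 8.91 over a median of 32.01 to 59.04 in mitotic cells, and from 4.39 over a median of 16.2 to 41.8 in non-mitotic cells, the medians differing 1.98-fold. The 8 cells with 1 of the genes lay between, with a median of 19.8. The classes overlapped: 3 non-mitotic cells lay above the mitotic median and 2 mitotic cells below the non-mitotic median. Within X09 cells the medians were 32.9 in mitotic and 16.4 in non-mitotic cells, and within X29 cells 18.7 and 11.5. Genes with a read numbered 3728 to 9015 in mitotic cells with a median of 6749.5, and 3421 to 8850 in non-mitotic cells with a median of 5441.5, a ratio of 1.24. Thinned to 1000000 gene reads per cell the medians were 6688 in 16 mitotic and 5291 in 31 non-mitotic cells, 3 shallower non-mitotic cells being left out.

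**Figure D1:**
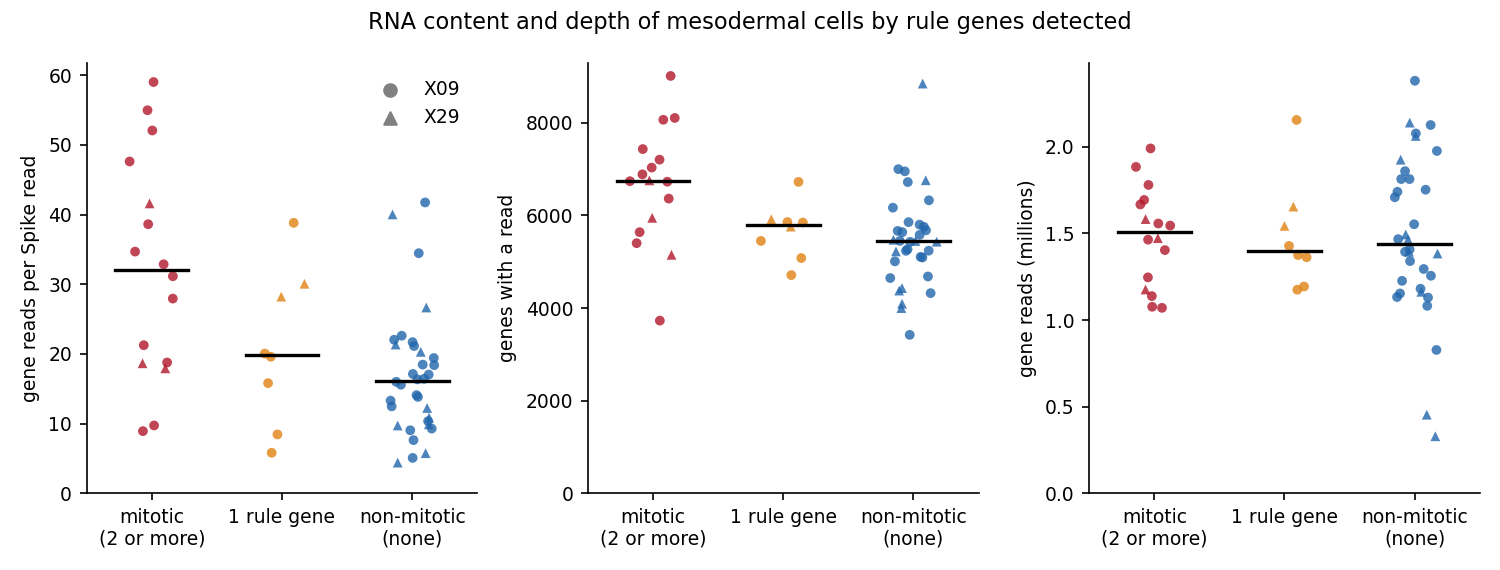
Gene reads per Spike read, genes with a read and gene reads (vertical axes, linear), for each of 58 mesodermal cells by class, with circles for X09 cells, triangles for X29 cells and a bar at the median. The mitotic cells have medians of 32.01 reads per Spike read and 6749.5 genes, against 16.2 and 5441.5 in non-mitotic cells, while their gene reads overlap over the whole range.

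RNA content moved with the class, and the rule that set the classes itself asks for detected genes. The classes were thus not chosen apart from how much RNA was caught in a cell. The part of RNA content in the results that follow was not tested. In CPM, which divides out the RNA content of a cell, the median measured gene differed by -0.01 on the log2 scale, but the share of cells that detected a gene was a median of 8.09 percentage points higher in the mitotic cells. In counts per Spike read the median gene was 0.90 higher (log2, a 1.87-fold difference). Results below are in CPM, with the value per Spike read, set against that shift of 0.90, where it bears on a direction that is stated. Of 221 genes followed singly, 46 had a log2 ratio below 0 in CPM and above 0 per Spike read, 41 of these still below the median gene, and 0 turned the other way.

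A gene was called higher or lower in the mitotic cells by the share rule, which asks for a ratio of mean CPM of at least 2 (1 CPM added to each mean) and a difference of at least 30 percentage points in the share of cells that detect the gene, in the same direction. Measured genes were those that at least 10% of the cells of a class detected, 9783 genes apart from the 4 that set the classes. Of these, 293 were higher (2.99%) and 8 lower (0.0818%). The share rule cannot call a gene that nearly every cell detects, so for the 1656 genes detected in at least 80% of both classes a level rule asked for the ratio of 2 alone, which 5 met as higher (0.302%) and 11 as lower (0.664%). By shares, calls were thus far more numerous on the side of the mitotic cells.

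Genes that act from late G2 to cleavage, in 7 lists by their role, were called far more often than genes at large. Of 132 measured, 73 were higher in the mitotic cells (55.3%, against 2.99% of all measured genes), 0 were lower, 115 had a ratio above 1, and the median log2 ratio was 1.30, against -0.01 for all genes. Counted cell by cell, mitotic cells detected 76 to 123 of the 133 genes with a median of 110, and non-mitotic cells 24 to 102 with a median of 56.5. Of the mitotic cells 13 lay above the highest non-mitotic cell, and no non-mitotic cell reached the mitotic median. Their summed level ran from 22714 over 34964 to 41283 CPM in mitotic cells, and from 5564 over 16560 to 30130 CPM in non-mitotic cells. The cells chosen by 4 genes also detected more of the other genes on these lists. Cells in late G2 would hold them too, so the label is not checked by this. The line was not sharp, as 8 non-mitotic cells detected at least as many mitosis genes as the lowest mitotic cell, one of them 102, and 1 of the cells with a single rule gene detected 113. These genes come from the same libraries as the 4 that chose the cells, so their counts describe the classes and test nothing.

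**Figure D2:**
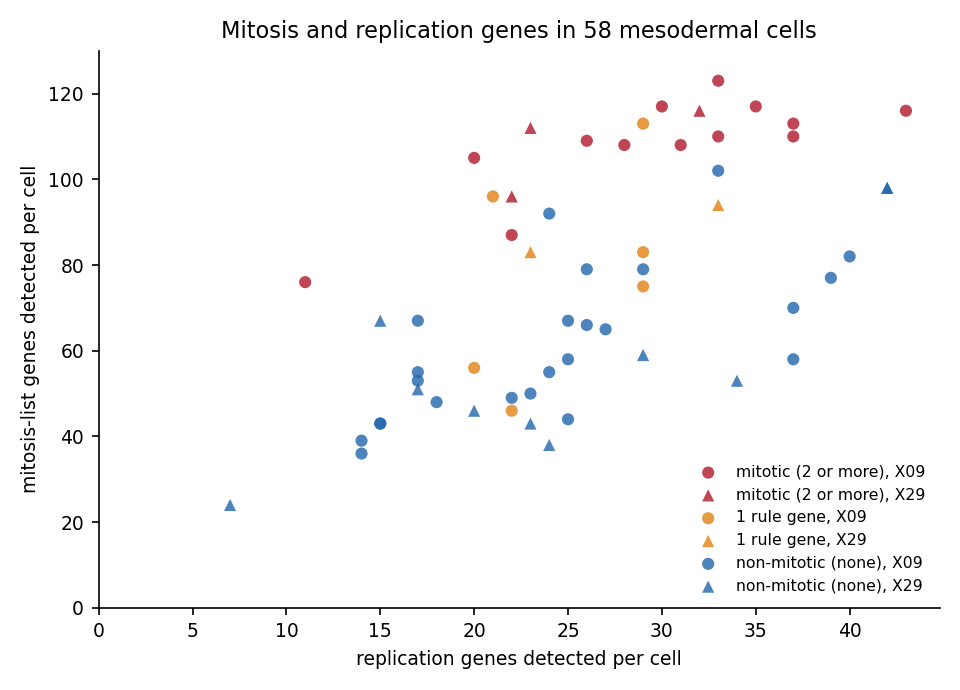
Number of mitosis-list genes detected (vertical axis) against number of replication genes detected (horizontal axis), 1 point per mesodermal cell, coloured by class, with circles for X09 and triangles for X29 cells. Mitotic cells lie high, with a median of 110 mitosis genes against 56.5 in non-mitotic cells, and the classes overlap in replication genes, 11 to 43 against 7 to 42.

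The cyclins that drive mitosis and the switches of their kinase were higher in 6 of 10 cases (60%, against 2.99% of all measured genes). Their median log2 ratio was 1.34. CCNB2, which encodes cyclin B2, was detected in all 16 mitotic cells, at 272 to 1439 CPM with a median of 795, and in 22 of 34 non-mitotic cells, at 0 to 1613 CPM with a median of 121. The lowest mitotic cell thus stood above the non-mitotic median, and the ranges overlapped. CCNA2, for cyclin A2, averaged 107 ± 97.5 CPM in mitotic and 43.2 ± 68.01 CPM in non-mitotic cells (SD over 16 and 34 cells) and was detected in 87.5 and 44.1% of them. The kinase itself, CDK1, was detected in nearly every cell and met the level rule, with 551 to 2939 CPM around a median of 2008 in mitotic cells and 2.21 to 2695 CPM around a median of 495 in non-mitotic cells. CKS2, a small subunit that binds CDK1, was detected in 100% of mitotic and 32.4% of non-mitotic cells, at 67.5 ± 41.2 and 10.6 ± 19.95 CPM. WEE1, the kinase that holds CDK1 inactive, was also higher, detected in 87.5 and 38.2% of cells. FBXO5, an inhibitor of the anaphase-promoting complex, was detected in 50 and 8.82% of cells, and in the 3 X29 mitotic cells its log2 ratio turned to -3.50. CDC25A, a phosphatase that frees CDK1 and its relative of S phase, met neither rule, with 16.2 ± 22.8 CPM in mitotic and 24.6 ± 55.7 CPM in non-mitotic cells.

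Of the 14 measured genes for mitotic kinases and their partners 10 were higher (71.4%, against 2.99% of all measured genes). Their median log2 ratio was 1.78. AURKA encodes Aurora A, the kinase of the spindle poles. It had 197 to 1516 CPM in mitotic cells with a median of 544, and 0 to 361 CPM in non-mitotic cells with a median of 0, being detected in 16 of 16 cells (interval 79.4 to 100%) and 10 of 34 (29.4%, interval 15.1 to 47.5%). The means, 585 ± 355 and 55.2 ± 111 CPM, differed 10.4-fold, and within X09 cells they were 571 and 61.9 CPM. TPX2, the partner that activates Aurora A on microtubules, averaged 648 ± 230 CPM in mitotic and 129 ± 142 CPM in non-mitotic cells. PLK1, the kinase of mitotic entry and cleavage, was detected in 16 mitotic cells at 26.96 to 681 CPM and in 21 non-mitotic cells at up to 496 CPM. BUB1, BUB1B and TTK, kinases of the spindle checkpoint, were detected in 100, 93.8 and 100% of mitotic cells and in 20.6, 50 and 23.5% of non-mitotic cells. BUB1 averaged 247 ± 193 and 27.3 ± 79.5 CPM, and TTK 251 ± 207 and 30.8 ± 100.4 CPM. VRK1, a chromatin kinase, and NEK6, a relative of NEK2, were detected in most cells of both classes and met neither rule, at 179 ± 134 and 78.9 ± 59.02 CPM in mitotic cells and 129 ± 122 and 123 ± 112 CPM in non-mitotic cells.

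Spindle motors and microtubule proteins had the highest share of calls among the lists, with 17 of 21 measured genes higher (80.95%, against 2.99% of all measured genes). Their median log2 ratio was 1.85. KIF2C, a motor that shortens microtubules at centromeres, was detected in all 16 mitotic cells at 22.7 to 321 CPM with a median of 152, and in 6 of 34 non-mitotic cells, the highest of which had 533 CPM. The class means were thus 161 ± 101 and 33.4 ± 103 CPM, with 1 non-mitotic cell above every mitotic cell. KIF11, which slides spindle poles apart, was detected in 87.5% of mitotic and 11.8% of non-mitotic cells at up to 363 and 313 CPM, and KIF18A, which aligns chromosomes, in 93.8 and 11.8%. HMMR, a spindle protein also known as a hyaluronan receptor, averaged 105 ± 97.4 CPM in mitotic and 2.97 ± 8.17 CPM in non-mitotic cells. NUSAP1, GTSE1, TACC3 and ASPM, which bind or bundle spindle microtubules, had ratios of mean CPM of 8.44, 6.35, 6.57 and 7.04. DLGAP5, CKAP5 and CENPE were each detected in 100% of mitotic and 47.1% of non-mitotic cells. STMN1, which takes microtubules apart, had 2193 ± 1044 CPM in mitotic and 2239 ± 1341 CPM in non-mitotic cells.

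**Figure D3:**
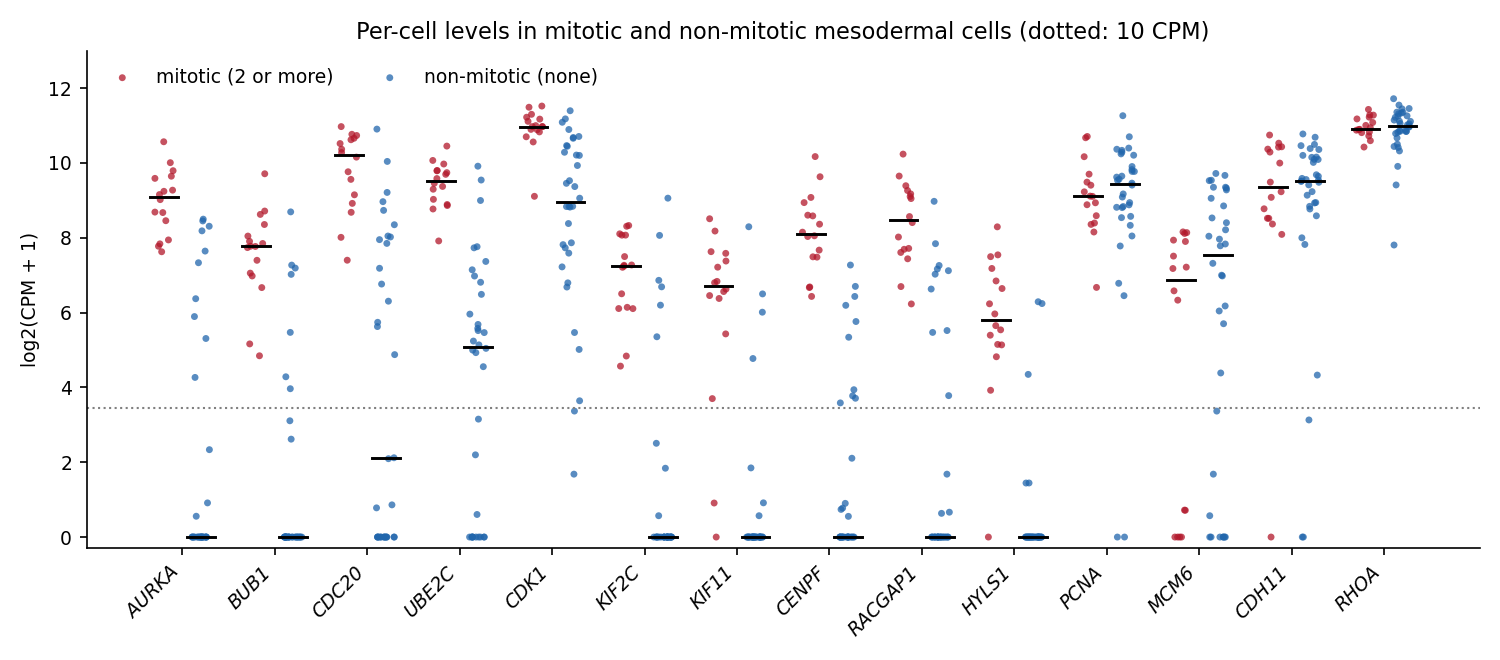
Levels of 14 genes in each mitotic (left, red) and non-mitotic (right, blue) mesodermal cell, as log2(CPM + 1) on the vertical axis, with a bar at the median and a dotted line at 10 CPM. AURKA, BUB1, CDC20, UBE2C, CDK1, KIF2C, CENPF and RACGAP1 were detected in all 16 mitotic cells, while the levels of PCNA, CDH11 and RHOA overlap in the classes, and MCM6 reaches 284.5 CPM in mitotic and 842 CPM in non-mitotic cells.

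At the centromere and kinetochore, where chromosomes are held by the spindle, 22 of 29 measured genes were higher (75.9%, against 2.99% of all genes). Of the 29, 28 had a ratio above 1, and the median log2 ratio was 1.73. CENPF, a large protein of the outer kinetochore, was detected in 16 of 16 mitotic cells, at 85.4 to 1152 CPM with a median of 274, and in 10 of 34 non-mitotic cells, at up to 154 CPM with a median of 0. Its means of 358 ± 282 and 16.6 ± 35.8 CPM differed 20.4-fold. The NDC80 complex, which grips the microtubule end, was represented by NDC80, NUF2 and SPC25, with 216 ± 135, 357 ± 138 and 285 ± 157 CPM in mitotic cells and 30.4 ± 55.5, 106 ± 159 and 61.9 ± 90.7 CPM in non-mitotic cells. CENPL and CENPN, of the inner kinetochore, were detected in 81.3 and 87.5% of mitotic and 11.8 and 20.6% of non-mitotic cells. SGO1, which guards cohesion at the centromere until anaphase, was detected in 11 of 16 mitotic and 2 of 34 non-mitotic cells, at 161 ± 223 and 5.63 ± 27.3 CPM. HJURP and MIS18A, which place the centromeric histone after mitosis, were detected in 81.3 and 93.8% of mitotic cells and in 14.7 and 29.4% of non-mitotic cells. INCENP, the scaffold of the Aurora B complex, was higher at 172 ± 108 CPM in mitotic and 35.3 ± 74.1 CPM in non-mitotic cells. BIRC5, survivin of the same complex, was detected in 100 and 91.2% of cells at 342 ± 155 and 193 ± 136 CPM and met neither rule.

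Of the 17 genes for cleavage of the cell 9 were higher (52.9%, against 2.99% of all measured genes). Their median log2 ratio was 1.35. RACGAP1 and KIF23 form the centralspindlin complex, which marks the plane of cleavage. RACGAP1 was detected in 16 mitotic cells at 74.2 to 1206 CPM and in 10 non-mitotic cells at up to 502 CPM, with means of 430 ± 303 and 43.98 ± 100.2 CPM. KIF23 was detected in 87.5 and 23.5% of cells at 192 ± 137 and 46.7 ± 132 CPM. ECT2, needed for the ring to form, ANLN, which links the ring to the cortex, and CEP55, needed for the final cut, had ratios of mean CPM of 6.54, 6.33 and 6.52. PRC1, which bundles the midzone, was detected in 50% of mitotic and 11.8% of non-mitotic cells. Among those that met neither rule, RHOA averaged 2034 ± 377 CPM in mitotic and 2013 ± 656 CPM in non-mitotic cells, the septin SEPT7 678 ± 273 and 702 ± 414 CPM, and the myosin heavy chains MYH9 and MYH10 448 ± 420 and 611 ± 244 CPM in mitotic cells and 432 ± 310 and 426 ± 272 CPM in non-mitotic cells.

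The spindle checkpoint and the anaphase-promoting complex had 3 of 19 genes higher (15.8%, against 2.99% of all measured genes). Their median log2 ratio was 0.64. The 3 were CDC20 and UBE2C, which steer the complex in mitosis, and ANAPC5, one of its subunits. CDC20 was detected in 16 of 16 mitotic cells at 168 to 2008 CPM with a median of 1190, and in 16 of 34 non-mitotic cells at 0 to 1917 CPM with a median of 3.31. UBE2C, the ubiquitin-conjugating enzyme of the complex, averaged 739 ± 287 CPM in mitotic and 109 ± 215 CPM in non-mitotic cells. ANAPC5 was detected in 62.5 and 14.7% of cells. Of the other subunits, CDC27 had 224 ± 127 CPM in mitotic and 136 ± 132.6 CPM in non-mitotic cells, and ANAPC1 34.4 ± 58.8 and 40.1 ± 81.1 CPM. BUB3, also of the checkpoint, had 576 ± 291 and 338 ± 222 CPM. None of these 3 met either rule.

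Of the 22 genes for condensation and cohesion of chromosomes 6 were higher (27.3%, against 2.99% of all measured genes). All 6 were condensin subunits or topoisomerase. TOP2A, which untangles sister chromatids, had 104 to 1548 CPM in mitotic cells around a median of 701, and 0 to 656 CPM in non-mitotic cells around a median of 65.5. The condensin genes SMC2 and SMC4 were detected in every mitotic cell, at 781 ± 393 and 234 ± 121 CPM, and in 67.6 and 64.7% of non-mitotic cells, at 224 ± 265 and 93.7 ± 156 CPM. NCAPG, NCAPH and NCAPD3, of the same complexes, were detected in 81.3, 87.5 and 68.8% of mitotic cells and in 14.7, 29.4 and 20.6% of non-mitotic cells. HMGB2, a chromatin protein of dividing cells, met the level rule with 2293 ± 659 CPM in mitotic and 1032 ± 736 CPM in non-mitotic cells. The cohesin genes RAD21 and SMC3, which hold sister chromatids from S phase on, met neither rule, at 290 ± 186 and 272 ± 149 CPM in mitotic cells and 193 ± 137 and 206 ± 166 CPM in non-mitotic cells.

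**Figure D4:**
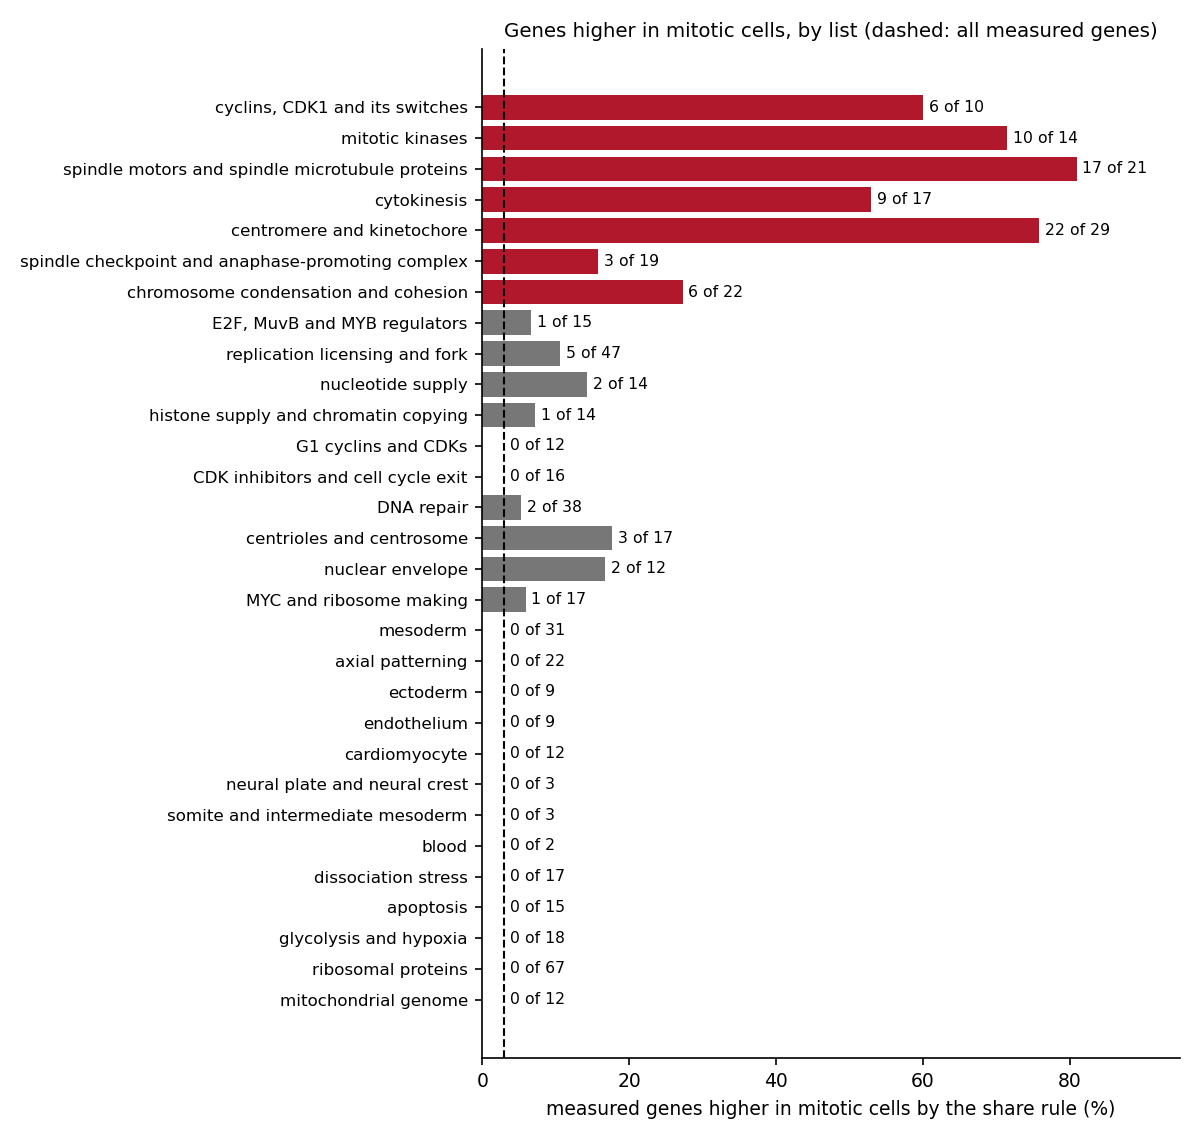
Share of the measured genes of each list that were higher in mitotic than non-mitotic mesodermal cells by the share rule, in percent on the horizontal axis, with counts beside the bars. The 7 mitosis lists are in red, the others in grey, and the dashed line marks 2.99%, the share among all 9783 measured genes.

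Of 47 measured genes for licensing of DNA and the replication fork 5 were higher (10.6%, against 2.99% of all measured genes and 55.3% of mitosis genes) and 0 lower, and the median log2 ratio was -0.13. Per Spike read it was 0.71, which lies below the 0.90 of the median gene. Mitotic cells detected 11 to 43 of these genes with a median of 30.5, and non-mitotic cells 7 to 42 with a median of 24, and the summed level had medians of 3801 and 3949 CPM. PCNA, the sliding clamp, averaged 673 ± 453 CPM in mitotic and 735 ± 520 CPM in non-mitotic cells. MCM2, MCM5 and MCM6, of the helicase loaded before S phase, had means of 74.6 ± 79.5, 89.7 ± 84.04 and 123 ± 116 CPM in mitotic cells and 171 ± 212, 156 ± 170 and 273 ± 287 CPM in non-mitotic cells, with log2 ratios of -1.18, -0.79 and -1.14. MCM4 was detected in 43.8% of mitotic and 70.6% of non-mitotic cells. None of the 4 met either rule. Per Spike read the log2 ratios of MCM2 and MCM5 were 0.04 and 0.30, above 0 but below the median gene. Those of MCM6 and MCM4 stayed below 0, at -0.21 and -0.016. The 5 genes called higher were RFC3, of the clamp loader, DNA2, a nuclease, CLSPN, of the replication checkpoint, and MCM10 and CDC45, which start the fork. RFC3 was detected in 16 of 16 mitotic cells at 38.4 to 421 CPM, and in 11 of 34 non-mitotic cells at up to 245 CPM. The other 4 had ratios of 2.36 to 2.97, with shares of 50 to 81.3% in mitotic and 17.6 to 44.1% in non-mitotic cells. The call of CLSPN ended with 1 particular cell left out and that of MCM10 with any of 8, and in the 3 X29 mitotic cells the log2 ratio of CLSPN was -0.03.

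The lists that feed or regulate S phase held 0 to 2 calls each, and against a background of 2.99% counts this small say little of a list in either direction. E2F, MuvB and MYB regulators had 1 of 15 genes higher (6.67%), LIN9, a MuvB subunit, detected in 50% of mitotic and 17.6% of non-mitotic cells, and its call ended with any of 8 cells left out. MYBL2, which encodes B-MYB, averaged 44.03 ± 47.3 CPM in mitotic and 48.4 ± 84.9 CPM in non-mitotic cells, while 62.5 and 38.2% of cells detected it and the medians were 32.3 and 0 CPM. E2F1 was detected in 1 of 16 and 6 of 34 cells. For nucleotide supply 2 of 14 genes were higher (14.3%), the salvage kinases TK1 (107 ± 79.97 and 39.8 ± 75.02 CPM) and DCK (149 ± 118 and 33.97 ± 119 CPM). RRM1 and RRM2, the ribonucleotide reductase subunits, met neither rule, and for RRM2 the measures ran in opposite directions. It was detected in 81.3% of mitotic and 41.2% of non-mitotic cells with medians of 52.97 and 0.43 CPM, but its means were 102 ± 138 and 163 ± 424 CPM, the highest non-mitotic cell having 2225 CPM. For histone supply and chromatin copying 1 of 14 was higher (7.14%), HAT1, which acetylates new histones, at 165 ± 132 CPM in mitotic and 69.5 ± 139 CPM in non-mitotic cells. None of 12 G1 cyclin and CDK genes was higher: CCND2, CCND1 and CDK6 had log2 ratios of -0.37, -0.29 and -0.16. Per Spike read these turned to 0.51, 0.50 and 0.68, below the 0.90 of the median gene. CCNE2, cyclin E2 of the entry to S phase, was detected in 2 of 16 mitotic and 11 of 34 non-mitotic cells. None of 16 genes for CDK inhibitors and exit from the cycle met either rule, CDKN1B, the inhibitor p27, being detected in 68.8 and 52.9% of cells. Of 38 DNA repair genes BRCA1 and XRCC2 were higher (5.26%). BRCA1, of repair by recombination, was detected in 87.5% of mitotic and 52.9% of non-mitotic cells, while the call of XRCC2 ended with any of 6 cells left out.

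Genes for structures that a cell doubles or takes apart to divide had 1 to 3 calls a list, shares above the 2.99% of all measured genes but on few genes. Of 17 centriole and centrosome genes 3 were higher (17.65%), CENPJ, which sets centriole length, in 68.8% of mitotic and 5.88% of non-mitotic cells, CEP135, a centriole core protein, in 68.8 and 11.8%, and CEP57 in 56.3 and 23.5%. The call of CEP57 ended with any of 9 cells left out. AKAP9, a scaffold of the centrosome and Golgi, had a log2 ratio of -0.62 in CPM and 0.13 per Spike read and met neither rule. Of 12 nuclear envelope genes NUP35 and NUP133, of the nuclear pore, were higher (16.7%), at 93.8 and 75% of mitotic and 50 and 38.2% of non-mitotic cells. Of 17 genes for MYC and the making of ribosomes 1 was higher (5.88%), RRN3, a factor of RNA polymerase I, at 99.5 ± 126 CPM in mitotic and 24.8 ± 49.3 CPM in non-mitotic cells. NPM1 and NCL, abundant nucleolar proteins, had log2 ratios of -0.05 and -0.11 in CPM, and of 0.91 and 0.85 per Spike read.

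Over all genes with a symbol, the 10 with the largest difference in share were HYLS1, KIF2C, KIF18A, BUB1, GTSE1, TTK, ARHGAP19, KIF11, DEPDC1B and NUSAP1. All but 3 were on the mitosis lists. HYLS1, which encodes a centriole protein needed for cilia, was detected in 15 of 16 mitotic cells, at a median of 55.4 and up to 313 CPM, and in 3 of 34 non-mitotic cells, at up to 77.3 CPM. Its means were 88.5 ± 82.2 and 5.14 ± 18.3 CPM. ARHGAP19 was detected in 93.8% of mitotic and 17.6% of non-mitotic cells at 180.3 ± 126 and 12.3 ± 31.8 CPM, and DEPDC1B in 81.3 and 5.88% at 80.5 ± 78.5 and 5.47 ± 23.4 CPM. KPNA2, an importin that carries proteins into the nucleus, averaged 2104 ± 1140 CPM in mitotic and 134 ± 293 CPM in non-mitotic cells, with 185 CPM in the lowest mitotic cell. Other genes off the lists, chosen after their values were seen, were KNSTRN, a kinetochore and spindle protein (100 and 44.1% of cells), MCPH1, of chromosome condensation (100 and 41.2%), and DEPDC1 (87.5 and 26.5%). Of the 293 higher genes 73 were on a mitosis list, 17 on another list, 168 carried a symbol but were on no list, and 35 had no symbol. Of the 43 that were detected in every mitotic cell 30 were on a mitosis list. The 43 were picked from called genes by their detection in these same cells, so nothing is read from that count.

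**Figure D5:**
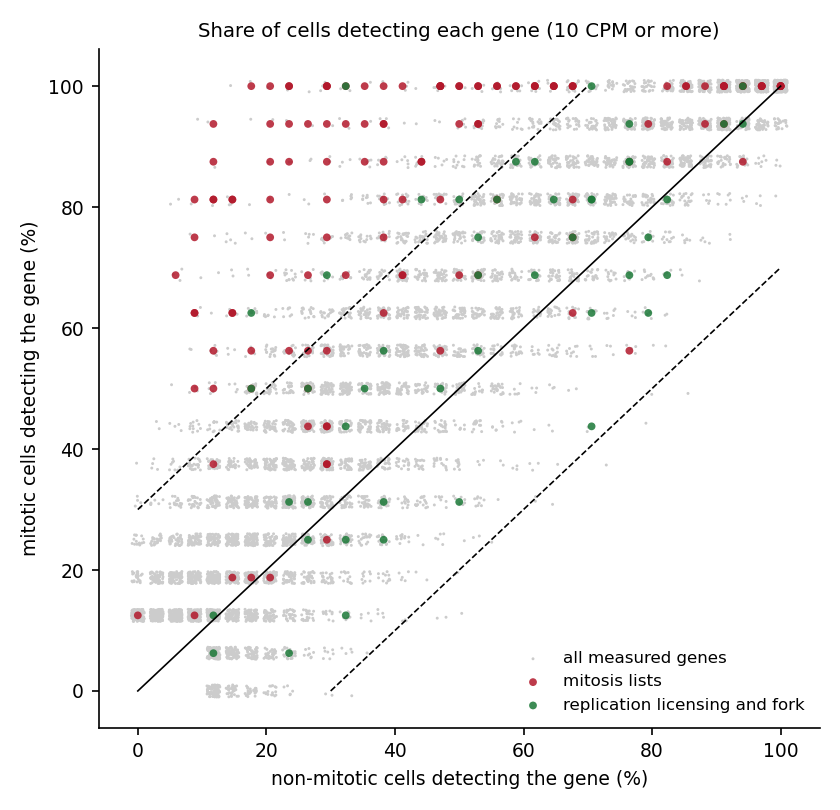
Share of mitotic cells that detect each gene (vertical axis, percent) against the share of non-mitotic cells (horizontal axis, percent), 1 point per measured gene with a small displacement of the grey points to keep them apart. Dashed lines mark a difference of 30 percentage points. Mitosis-list genes (red) lie above the upper line in many cases, replication genes (green) mostly between the lines.

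Beside the mitosis genes, EZH2 and TUBA3E met the level rule. EZH2, the enzyme of the Polycomb mark H3K27me3, had 123 to 626 CPM in mitotic cells around a median of 283, and 0 to 675 CPM in non-mitotic cells around a median of 96.2. TUBA3E, an alpha-tubulin, averaged 1005 ± 362 CPM in mitotic and 392 ± 347 CPM in non-mitotic cells. It is one of a family of near-identical genes, between which the counting may have split reads, so its level is uncertain. Of the 6 genes other than the 4 rule genes that led the cluster from which the rule was taken, FBXO39, an F-box protein, was detected in 81.3 and 14.7% of cells, and LMBRD2 in 62.5 and 29.4%, its call ending with 1 particular cell left out. FANCI, PEAK1, TICAM1 and BRIP1 met neither rule, with shares of 43.8, 50, 50 and 56.3% in mitotic and 14.7, 26.5, 23.5 and 35.3% in non-mitotic cells.

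The share rule called 8 genes lower in the mitotic cells, and 5 of them carried a symbol. A lower call is harder to reach, as the share of detecting cells was a median of 8.09 percentage points higher in mitotic cells. Without the 4 mitotic cells highest in gene reads per Spike read, 30 genes were lower by the share rule. The level rule called 11 lower and 5 higher. ZFPM1, a partner of GATA factors, was detected in 2 of 16 mitotic cells at up to 12.8 CPM, and in 16 of 34 non-mitotic cells at up to 49.02 CPM. MFAP2, a protein of extracellular microfibrils, was detected in 12.5 and 47.1% of cells at 4.34 ± 5.00 and 14.9 ± 20.2 CPM. MACF1, which links microtubules to actin, averaged 17.3 ± 23.7 CPM in mitotic and 42.8 ± 46.1 CPM in non-mitotic cells. NRARP, a feedback regulator of Notch signalling, was detected in 25 and 55.9% of cells, and MBNL1, a splicing factor, in 31.3 and 61.8%, but the calls of both were at the edge and ended with any of 31 or 32 cells left out. By the level rule CYR61, a secreted matrix protein, had 164 ± 141 CPM in mitotic and 410 ± 394 CPM in non-mitotic cells, and TNNT2, cardiac troponin T, 179 ± 213 and 434 ± 372 CPM. GPX3 and ADSL, which encode a secreted peroxidase and an enzyme of purine synthesis, had log2 ratios of -1.22 and -1.17. TMX3 and HSPB9 met that rule too, with log2 ratios of -1.25 and -1.05, the call of HSPB9 ending with any of 14 cells left out. Per Spike read 0 genes were lower by the level rule: the log2 ratios of CYR61, TNNT2, ADSL and GPX3 were -0.34, -0.24, -0.15 and -0.04, and those of TMX3 and HSPB9 turned to 0.13 and 0.18. These 6 values lie below the 0.90 of the median gene. Per Spike read all 8 share-rule genes stayed below 0, though 1 met the rule. Under the other settings tried 0 to 8 of the 8 were called lower again. With detection at any read 0 were, at 50 CPM 1, in X09 cells alone 3 and in thinned counts 5. With 1 non-mitotic cell, X09_C29, left out 5 genes were lower by the share rule, and without the mitotic cell X09_C30 or X09_C48 17 were lower by the level rule.

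Of 31 mesoderm genes 0 were higher and 0 lower, a count near the background of 2.99 and 0.0818% from which nothing is read, with a median log2 ratio of -0.06, and mitotic cells detected 3 to 28 of them with a median of 23.5, non-mitotic cells 6 to 27 with a median of 21. CDH11, a cadherin of mesenchyme, averaged 823 ± 532 CPM in mitotic and 772 ± 474 CPM in non-mitotic cells, and MSX1 1502 ± 1198 and 1741 ± 1506 CPM. PRRX1, which encodes a homeodomain factor of limb and flank mesenchyme, was found in 15 of 16 and 32 of 34 cells at 194 ± 85.2 and 365 ± 235 CPM, a log2 ratio of -0.91 that met neither rule and turned to 0.25 per Spike read, below the median gene. Of 22 genes for patterning along the body axis 0 met a rule: HOXB5 was detected in 68.8 and 70.6% of cells, CDX2 in 75 and 61.8%, HOXB9 in 50 and 29.4%. Keratins of simple epithelia were found in both classes of mesodermal cells, KRT7 at 5311 ± 2514 CPM in mitotic and 5148 ± 3178 CPM in non-mitotic cells, and 0 of 9 measured ectoderm genes met a rule. Nothing is read from the patterning and ectoderm counts of 0 either.

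Some cells stood apart in both classes. The mitotic cell with the fewest mitosis genes, 76, also had the fewest genes with a read (3728) and 8.91 gene reads per Spike read. It detected 3 mesoderm and 10 ectoderm genes. Their summed levels were 415 and 19735 CPM, against medians of 13315 and 9532 CPM in the mitotic cells. The 13 ectodermal cells with no rule gene detected 5 to 11 mesoderm and 10 to 17 ectoderm genes. These values go against the mesodermal label of the mitotic cell, which holds by the rule alone. Without this mitotic cell 345 genes were higher and 9 lower, and 74 mitosis genes. The mitotic cell X09_C01 and the non-mitotic cell X29_C88 had the most genes with a read of their classes, 9015 and 8850. Each detected 24 mesoderm and 11 ectoderm genes. The non-mitotic cells X09_C09 and X09_C44 also detected 11 ectoderm genes. Whether these are single cells was not tested. Of the 13 endothelium genes, 11 to 13 were detected in 3 non-mitotic cells and at most 3 in any mitotic cell. X09_C91 and X29_C51, cells with 1 rule gene and with 113 and 83 mitosis genes, detected 13 and 11 of them. The summed level of the endothelium genes ran from 2.57 to 222 CPM in mitotic and from 0.80 to 9857 CPM in non-mitotic cells. The median log2 ratio of the 9 measured was -2.89, although CDH5, for the cadherin of vessels, was at 0 in the median cell of both classes and 0 of the 9 met a rule. Without the 3 non-mitotic cells 309 genes were higher, 266 of them among the 293, and 19 lower by the level rule. Neural, somite and blood genes were measured in 3, 3 and 2 cases, and 0 met a rule. Against the 2.99 and 0.0818% of all measured genes, nothing is read from a count of 0 in lists this short. Of the 12 cardiomyocyte genes 0 met the share rule. The level rule, open to 3 of them, called TNNT2 alone, as lower, against 0.664% of the 1656 genes open to that rule. Nothing is read from 1 call. The 12 genes had a median log2 ratio of -0.62 in CPM and 0.51 per Spike read, against 0.90 for the median gene.

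The median ribosomal protein and mitochondrial genes lay below the median gene on both scales. Of 67 ribosomal protein genes 0 met a rule, 5 had a ratio above 1 in CPM with a median log2 ratio of -0.21, and all 67 had one above 1 per Spike read, with a median log2 ratio of 0.76, against 0.90 for the median gene. For the 12 genes of the mitochondrial genome the medians were -0.48 in CPM and 0.59 per Spike read, and they took 1.08 to 7.57% of gene reads in mitotic cells and 0.129 to 22.6% in non-mitotic cells. None of 15 apoptosis or 18 glycolysis genes met a rule. By the share rule 2.99% of all measured genes were higher and 0.0818% lower, so nothing is read from these counts. GAPDH had 7644 ± 1709 CPM in mitotic and 8224 ± 2772 CPM in non-mitotic cells. Of 17 genes that respond to dissociation 0 met the share rule. The level rule, open to 7 of them, called HSPB9 alone, as lower, against 0.664% of the 1656 genes open to that rule. Nothing is read from 1 call. HSPA8 had 4323 ± 1473 CPM in mitotic and 3278 ± 1443 CPM in non-mitotic cells.

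The same choice made in the ectodermal cells, an alternative added after the data were seen, set 7 cells with at least 2 of the genes against 13 with none. CIT, one of the genes that made the choice, was detected in 0 of these 7 cells. Over all cells of each layer it was detected in 13 of 58 mesodermal (22.4%, interval 12.5 to 35.3%) and 2 of 26 ectodermal cells (7.69%, interval 0.946 to 25.1%), and the intervals overlap. The 7 cells detected 56 to 116 mitosis genes with a median of 93, and the 13 cells 36 to 86 with a median of 55. Their gene reads per Spike read had medians of 24.7 and 18.2. Of the mitosis genes 35 of 132 were higher, against 518 of 9931 measured genes (5.22%), and 31 of these 35 were among the 73 of the mesodermal cells. On the other side 263 genes were lower (2.65%), and by the level rule 19 were higher (1.24%) and 22 lower (1.44%). AURKA was detected in 85.7 and 30.8% of ectodermal cells, CENPF in 71.4 and 30.8% and RACGAP1 in 71.4 and 23.1%. Over all genes 58 were higher in both layers, 19.8% of the 293 mesodermal and 11.2% of the 518 ectodermal genes, and 13 of the 293 were lower in the ectodermal cells. In the X09 mesodermal cells alone, 13 against 24, 65 mitosis genes were higher, against 411 of 9574 measured genes (4.29%), with 18 genes lower (0.188%), and 6 higher (0.34%) and 18 lower (1.02%) by the level rule.

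Across the 58 mesodermal cells, the number of rule genes detected went with the number of mitosis genes detected at a Spearman correlation of 0.75, with genes with a read at 0.48, with gene reads per Spike read at 0.47, with replication genes detected at 0.25 and with gene reads at -0.02. Mitosis genes and replication genes detected were related at 0.61. These are descriptions without a test, as the cells share 1 pool and each pair of counts shares the depth and RNA content of the cell. As a share of all genes detected in the cell, mitosis genes made up a median of 2.01% in mitotic, 1.72% in the cells with 1 rule gene and 1.26% in non-mitotic cells. Without the 4 mitotic cells that exceeded every non-mitotic cell in gene reads per Spike read, an alternative added after the data were seen, 274 genes were higher, 224 of them among the 293, and 68 of the 73 mitosis genes. By the share rule 30 genes were then lower. The 12 mitotic cells left still had higher medians, 1.52-fold in gene reads per Spike read and 1.20-fold in genes with a read. The difference in RNA content was thus not removed, and its part was not tested.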

How the data were processed

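Single cells of pooled amniogenic somatopleure were captured on a Fluidigm C1 chip, with SMARTer v4 cDNA, Nextera XT libraries and paired-end reads, per the labels' protocols. The authors deposited 1 table of raw read counts, 1 column for each of 89 cells. HISAT2 2.1.0, featureCounts and the build GRCg6a are named in the submitters' processing notes, with settings not given in the sources used here. Without molecular identifiers, copies amplified from the same molecule count repeatedly, which the intervals do not cover. The 3 Spike rows (5.99% of all reads) were left out of totals. Of 13823 gene rows 10452 carried a symbol, and the Ensembl identifiers of the rest could not be paired with names.

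CPM was computed over the gene reads of a cell (328645 to 2381723 in the 89 cells, median 1464140, where 1 read is 0.682 CPM). A fold change is the mean CPM plus 1 of mitotic cells over that of non-mitotic cells, which understates differences of low genes. With 1 pooled sample no test, p-value or standard error was computed, and SDs are over cells. Doublets were not called, the cells being few. Python 3.11.15, numpy 2.4.6, pandas 2.3.3 and scipy 1.17.1 were used, and the size rules were tested on simulated counts. In these an unchanged gene had the same chance of detection in both classes. The simulation thus says nothing of calls that go with the higher detection in mitotic cells.

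The members, the 31 gene lists and the rules were chosen with earlier results of these data known. Genes were named as follows: in each list up to 3 called genes in each direction, by difference in share, and 2 others with the highest mean CPM, over all genes the 10 with the largest difference in share and the 5 with the largest ratio by the level rule in each direction, and the leading genes of the earlier cluster. Further genes were chosen after their values were seen: CCNB2, FBXO5, PLK1, TPX2, BUB1B, HMMR, TACC3, ASPM, DLGAP5, CKAP5, CENPE, NDC80, NUF2, SPC25, SGO1, HJURP, MIS18A, INCENP, KIF23, ECT2, ANLN, PRC1, MYH9, MYH10, CDC27, ANAPC1, TOP2A, SMC2, SMC4, RAD21, SMC3, MCM2, MCM4, MCM5, MCM10, CDC45, MYBL2, E2F1, RRM1, RRM2, CCND1, CCNE2, CDKN1B, KPNA2, PRRX1, CDH11, CDX2 and HOXB9. Promoter sequences were not used here, so the planned count of promoter motifs was not run. Some genes that are counted in a list are not reported here by name.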

Additional observations from a re-analysis of the deposited data

How the results depend on the processing

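Under the settings tried 55 to 80 mitosis genes were higher, against 73. The 73 had a ratio above 1 in each setting, save 1 gene in X29 cells alone. They were called by a ratio of at least 2 in these same cells, so that direction was largely given by their choice and tests nothing. The ratio of medians in genes with a read was 1.12 to 1.27 and that in gene reads per Spike read 1.52 to 2.16. The summed mitosis level ratio was 1.89 or more, and 4.49 in levels per Spike read, where the median of all genes is itself higher.

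Counts over all genes moved more. Of the 293 higher genes 108 to 293 were called again, depending on the setting. Detection at 50 CPM kept 108, at least 1 rule gene 160, X29 cells alone 184 and detection at any read 201. The numbers higher and lower by the share rule and higher and lower by the level rule were 293, 8, 5 and 11 as reported. Detection at 50 CPM gave 151, 29, 2 and 0. Levels per Spike read gave 632, 1, 544 and 0, and X29 cells alone, with 3 mitotic cells, 1279, 828, 62 and 78. At least 1 rule gene gave 180, 3, 3 and 5, and at least 3 gave 466 higher by the share rule. Asking for 20 points gave 487 and 74, and 40 points 172 and 0, by construction. Detection at any read gave 393 higher and 11 lower by the share rule, and 19 higher and 25 lower by the level rule. Thinning gave 13 lower by the share rule, with 8 higher and 17 lower by level, and X09 cells alone 18 lower by either rule. A minimum of 4000 genes gave 15 lower by share and 10 higher by level, and no minimum 3 lower by share and 6 by level. Lower genes by share were 17 with no ectoderm gene allowed, 3 with 10 CPM added, and 13 with FOXM1 out of the rule, which also gave 8 higher by level. Without the 3 non-mitotic cells with 5 or more endothelium genes 19 were lower by level. Without the 4 mitotic cells highest per Spike read, 30 were lower by share and 8 higher by level. The causes were not tested.

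With each cell left out in turn, 279 to 345 genes were higher and 5 to 12 lower by share, 5 to 7 higher and 8 to 17 lower by level, and 70 to 74 mitosis genes higher. Of 317 called genes 105 lost the call on leaving out 1 cell, 5 of them mitosis genes. Among called genes followed singly the log2 ratio changed sign for LIN9 (-0.037 at 50 CPM), HSPB9 and TMX3 (0.18 and 0.13 per Spike read), and CLSPN and FBXO5 (-0.025 and -3.50 in X29 cells). Of all 221 genes followed singly 46, HSPB9 and TMX3 among them, were below 0 in CPM and above 0 per Spike read. No paired analysis was possible because the cells form 1 pooled group and their numbers pair nothing. Promoter motifs were not run. With 16 and 34 cells the intervals are wide, and a gene whose cDNA was lost counts as not detected.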

Other observations

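Genes of cholesterol synthesis, a list drawn up after the values were seen, held 5 of 23 measured genes that were higher in the mitotic cells (2.99% of all measured genes were) and 19 with a ratio above 1, at a median log2 ratio of 0.61. As the values were known when the list was chosen, nothing is read from its count against that share. Mitotic cells detected 6 to 21 of them with a median of 17.5, and non-mitotic cells 4 to 18 with a median of 13. The 5 were FDFT1 and SQLE, the first enzymes that lead only to sterols, CYP51A1 and NSDHL, which remove methyl groups after lanosterol is formed, and DHCR7, which acts at the end of the pathway. CYP51A1 was detected in 16 of 16 mitotic cells at 39.5 to 736 CPM with a median of 279, and in 23 of 34 non-mitotic cells at 0 to 692 CPM with a median of 37.9. DHCR7 averaged 160.1 ± 175 CPM in mitotic and 29.1 ± 42.6 CPM in non-mitotic cells. HMGCS1, an early enzyme of the pathway, met no rule, with 81.3 and 61.8% of cells and 330.1 ± 360.4 and 87.6 ± 123 CPM. SREBF2, the factor that drives these genes, was detected in 56.3 and 35.3% of cells. In the ectodermal cells 2 of the 23 genes were higher, against 5.22% of all genes measured there, and nothing is read from this count either. The call of FDFT1 ended with 1 particular cell left out and that of SQLE with any of 31. RNA content and the number of genes detected moved with the classes, and their part in this was not tested.

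Augmin and gamma-tubulin complexes, which start new microtubules on the spindle and at its poles, also a list drawn up after the values were seen, held 4 of 13 genes that were higher, again against 2.99% of all measured genes, at a median log2 ratio of 0.14. Nothing is read from this count either, for the same reason. HAUS3 was detected in 75% of mitotic and 14.7% of non-mitotic cells, HAUS8 in 93.8 and 38.2%, HAUS1 in 93.8 and 52.9%, and TUBGCP3 in 87.5 and 23.5%, its call ending with 1 particular cell left out. TUBGCP4, of the same ring complex as TUBGCP3, had 80.3 ± 87.95 CPM in mitotic and 90.1 ± 131 CPM in non-mitotic cells, and TUBGCP2 6.78 ± 18.7 and 34.6 ± 78.4 CPM. HAUS1 also stands on the spindle list.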
